A study of Mus musculus with 126 samples.

Results

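The genes of 4 groups of transcription factors were followed in mouse embryonic stem cells, namely Nrf1, the GABP subunit genes Gabpa, Gabpb1 and Gabpb2, the YY genes Yy1 and Yy2, and the SP genes Sp1, Sp2, Sp3 and Sp4. They were chosen by symbol in the deposited gene count table, and all 10 were found among its 23420 genes. The RNA-seq part holds 8 libraries in 4 groups of 2. The J1 line served as wild type, and the triple knockout (TKO) cells lacked Dnmt1, Dnmt3a and Dnmt3b on the same background (Dnmt1-/-, Dnmt3a-/-, Dnmt3b-/-). Each genotype was exposed for 36 h to 5 ng/µl Trichostatin A (TSA), as labelled, or to 0.0033% DMSO, and all cells were kept on gelatin in serum with leukaemia inhibitory factor. TSA inhibits histone deacetylases, and the 3 deleted genes encode the enzymes that set and maintain DNA methylation. The labels do not say whether the 2 libraries of a group came from separate cultures, so p-values measure the spread between these libraries, which may be technical. The series has 126 samples, of which 118, among them the ChIP-seq samples for factors that these genes encode, were not analysed here.

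NRF1 (nuclear respiratory factor 1, not the similarly named NFE2L1) binds a GC-rich palindrome with CpGs and is known for activating nuclear genes of mitochondrial function. GABP is made of an ETS-domain subunit, encoded by Gabpa, that contacts DNA, and a beta subunit, encoded by Gabpb1 or Gabpb2, that carries the activation domain. YY1 is a zinc finger protein that both activates and represses and works with the INO80 chromatin remodelling complex, while Yy2 is a retrogene copy of Yy1. SP1 to SP4 are zinc finger proteins, of which SP1, SP3 and SP4 bind GC boxes in CpG-island promoters.

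Promoter sequence is shown for Sp2, Gabpa and Yy2, the 3 genes with the largest called responses to TSA. RefSeq windows (GRCm38.p6, from 250 bases before to 50 bases after a transcription start) matched all 10 genes, with 15 windows in all. Both strands were searched for CGCATGCG (NRF1), CCGGAAGT (GABP), AAGATGGC (YY1) and GGGGCGGGG (SP), and no match overlapped another. Matches are in capitals in the 250 bases before the start, written 5' to 3' on the strand of the gene. Gabpa is at chr16:84834874-84835123 on the plus strand, Yy2 at chrX:157568986-157569235 on the minus strand, and Sp2 at chr11:96977689-96977938 on the minus strand, the Sp2 window that begins at the deposited gene start.
Gabpa: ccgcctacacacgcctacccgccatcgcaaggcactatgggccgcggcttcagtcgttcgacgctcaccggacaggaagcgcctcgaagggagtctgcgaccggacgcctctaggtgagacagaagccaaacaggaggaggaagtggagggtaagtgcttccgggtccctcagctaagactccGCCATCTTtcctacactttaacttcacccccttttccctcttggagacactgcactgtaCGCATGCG
Yy2: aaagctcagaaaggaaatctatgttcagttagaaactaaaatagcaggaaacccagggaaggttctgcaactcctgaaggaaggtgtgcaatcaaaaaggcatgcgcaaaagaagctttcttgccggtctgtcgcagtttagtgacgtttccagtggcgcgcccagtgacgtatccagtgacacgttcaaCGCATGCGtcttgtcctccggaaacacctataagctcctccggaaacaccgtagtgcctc
Sp2: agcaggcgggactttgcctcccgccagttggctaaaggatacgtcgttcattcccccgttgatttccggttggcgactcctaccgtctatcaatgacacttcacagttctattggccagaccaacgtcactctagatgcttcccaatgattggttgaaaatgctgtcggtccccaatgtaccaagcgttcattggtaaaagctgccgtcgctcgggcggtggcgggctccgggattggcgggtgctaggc
The Gabpa stretch holds the NRF1 letters with their first base at -8 from the start and the YY1 letters, on the opposite strand, at -67. The Yy2 stretch holds the NRF1 letters at -60. The Sp2 windows hold none of the 4 sets of letters. Among the other genes, the SP letters were at -63 in Sp1 and at -101 in 1 window of Sp3, and the GABP letters at -29 in the other window of Sp3. Over all 32851 promoter windows, 1.87% held the NRF1 letters, 3.89% the GABP letters, 2.75% the YY1 letters and 11.4% the SP letters. The windows shown had 22 CpGs for Gabpa, 20 for Yy2 and 25 for Sp2 in 300 bases, against a median of 7 over all windows. The other Sp2 windows had 3 and 6. A high count was not particular to the genes shown. Nrf1 had 43 and 2, Gabpb1 37 in each window, Gabpb2 24, Yy1 42, Sp1 19, Sp3 42 and 29, and Sp4 42. A match describes the letters only, and a window without one says nothing about the factor.

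Total counts ran from 13280631 to 15542527 per library. The targeted genes were lower in every TKO library than in every wild type library, with at most 135, 39.1 and 76.1 normalised CPM (counts scaled to a common library total) for Dnmt1, Dnmt3a and Dnmt3b against at least 360, 152 and 343. All 10 embryonic stem cell markers were detected, meaning above 0 in at least 1 library. Their summed level was 3505 and 3976 CPM with DMSO against 1941 and 2179 with TSA in wild type cells, and 4430 and 4855 against 1927 and 2255 in TKO cells. Summed trophoblast markers (8 of 8 detected) moved from 284 to 432 CPM in wild type DMSO to 653 to 705 in wild type TSA, and from 72.3 to 107 in TKO DMSO to 295 to 309 in TKO TSA. Summed endoderm markers (8 of 8 detected) were at 85.6 to 114 CPM in wild type cells and at 293 to 381 in TKO cells. Summed neural markers (8 of 8 detected) were at 342 and 424 CPM with DMSO against 178 and 212 with TSA in wild type cells. In TKO cells they were at 300.2 and 332 against 164 and 171. Both the neural and the stem cell sums were lower in every TSA library than in every DMSO library. Summed mesoderm markers (8 of 8 detected) lay between 10.9 and 18.6 CPM in all libraries. Only 3 of the 8 mesoderm markers had a mean of at least 1 CPM over the libraries. That level was reached by 6 of 8 neural, 7 of 8 trophoblast, 9 of 10 mesenchymal and all endoderm and stem cell markers. Mesenchymal markers (10 of 10) were at 505 to 862 CPM in wild type and 265 to 348 in TKO. The part of these shifts in the results below was not tested. Fewer cells of a type and less RNA per cell cannot be told apart in bulk RNA.

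All 10 genes were expressed in all 8 libraries and passed the filter on low counts. In levels per kilobase of exon, which allow genes to be compared, Sp3 was at 54.8 and 71.1 CPM per kb in wild type DMSO and Gabpa at 45.7 and 59.4, so these neighbours overlapped. Sp1 was at 41.0 and 45.6 CPM per kb, and Yy1, at 36.9 and 44.4, overlapped it. Nrf1 followed at 19.6 and 22.7, Gabpb2 at 15.2 and 16.5, Gabpb1 at 11.4 and 12.97 and Yy2 at 9.06 and 10.1 CPM per kb, with no overlap between these neighbours. Sp4, at 4.33 and 4.89, and Sp2, at 4.22 and 4.77 CPM per kb, overlapped at the bottom. Without division by length the order differs, and Sp1 comes first.

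**Figure D1:**
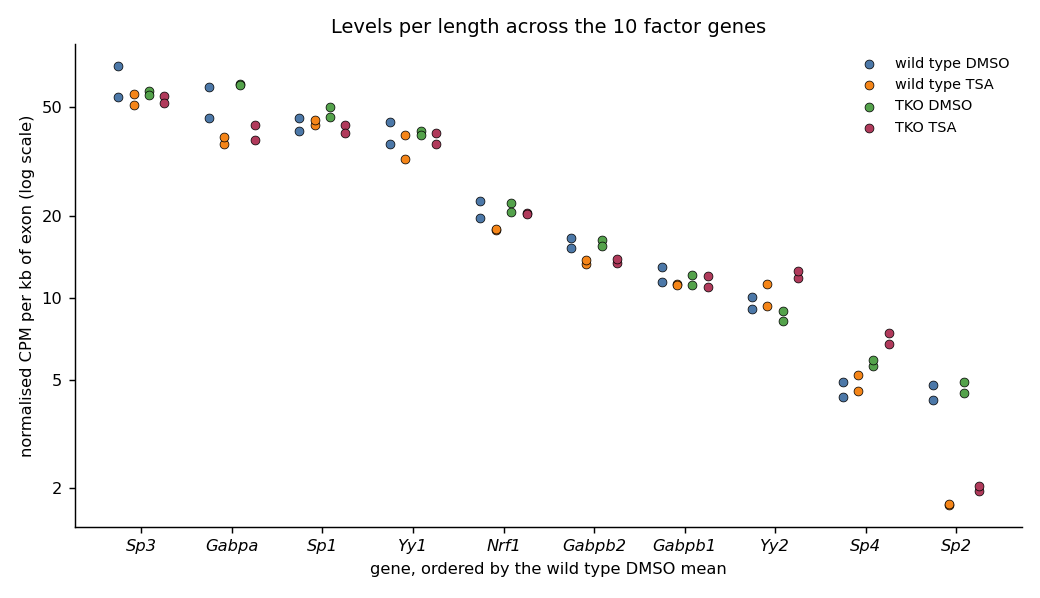
Level per kilobase of exon (normalised CPM per kb, log axis) of the 10 genes in each of the 8 libraries, ordered by the wild type DMSO mean and coloured by group. Sp3, Gabpa, Sp1 and Yy1 lie at the top, and the Sp2 points of both TSA groups lie lowest, near 2 CPM per kb.

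The first question was what TSA did to these genes. In wild type cells 3 of 10 were called, all lower, at a Benjamini-Hochberg adjusted p below 0.05 in edgeR's quasi-likelihood test, where 52.8% of the 15822 tested genes were called, 27.0% higher and 25.9% lower. In TKO cells 3 of 10 were called, 1 higher and 2 lower, against 58.7% of all genes, 30.8% higher and 27.9% lower. The median log2 fold change of the 10 genes was -0.21 in wild type and -0.08 in TKO, against 0.01 and 0.04 over all genes. In each genotype 9 of 10 genes changed by less than 1.5-fold, as did 57.9% and 52.9% of all tested genes. Under scaling by total counts the higher calls rose from 51.0% to 70.5% of all calls in wild type and from 52.5% to 64.4% in TKO. Among the 10 genes that scaling called Sp1 higher and Sp2 lower in wild type, and no other.

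**Figure D2:**
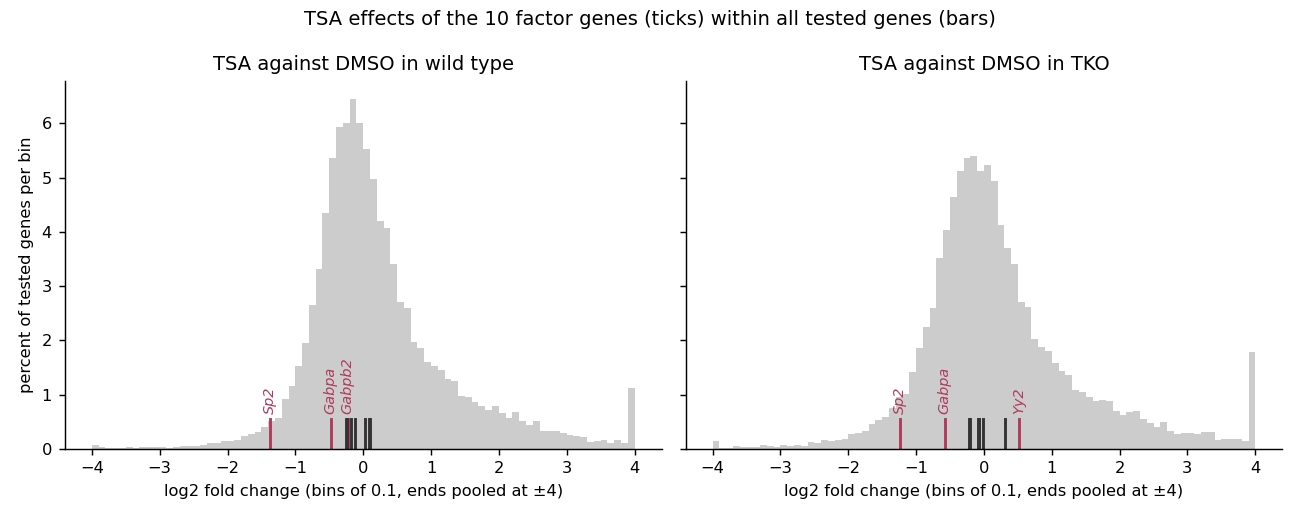
Percent of the 15822 tested genes per bin of log2 fold change (TSA against DMSO), in wild type and TKO, with the 10 factor genes as ticks; called genes are red and named. Sp2 is the only tick beyond -1 in both panels, and most other ticks lie near the centre.

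Nrf1 was at 121 and 105 CPM with DMSO against 94.98 and 95.7 with TSA in wild type cells, and 119 and 110.0 with DMSO against 109 and 108 with TSA in TKO cells. Both wild type TSA libraries were below all the others, and both TKO TSA libraries were just below both TKO DMSO libraries. The log2 fold change with TSA was -0.25 ± 0.10 (SE) in wild type, with an adjusted p of 0.0513 in edgeR and a 95% interval from -0.46 to -0.03. It was -0.08 ± 0.10 in TKO, with an interval from -0.29 to 0.14. The value for TKO against wild type under TSA was 0.19, with an adjusted p of 0.209 in edgeR. No call was made for Nrf1 in any contrast. In wild type it was called under 2 of 15 alternatives, 1 of them without wild type DMSO replicate 2.

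Gabpa, which encodes the DNA-binding GABP subunit, fell with TSA in both genotypes. It was at 228 and 296 CPM with DMSO against 182 and 193 with TSA in wild type cells, and 304 and 300.4 with DMSO against 216 and 189 with TSA in TKO cells. Every TSA library was below every DMSO library, and the wild type DMSO libraries were far apart from each other. The log2 fold change was -0.48 ± 0.12 (SE; adjusted p = 0.00669, edgeR) in wild type and -0.58 ± 0.12 (adjusted p = 0.00185, edgeR) in TKO. The wild type value rested on the DMSO libraries, with -0.29 (adjusted p 0.0489 in edgeR) without wild type DMSO replicate 2 and -0.66 without replicate 1. In wild type the call was lost under scaling by total counts (adjusted p 0.0659 in edgeR), a scaling that moved the median of all genes to 0.22. Relative to that median Gabpa was at -0.49, as in the main scaling. Subtracting the median largely cancels a change of scaling for every gene, so this match adds no support. The deposited exons of Gabpa (chromosome 16, 84835124 to 84863778) share 123 bases, 2.47% of its length, with exons of Atp5j. Reads there cannot be assigned to 1 gene if strand was ignored. Atp5j was also lower with TSA, at -0.31 on the log2 scale in wild type (adjusted p = 0.0488, edgeR) and -0.53 in TKO (adjusted p = 0.00271, edgeR). The part of shared reads in the Gabpa values was not tested.

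The beta subunit genes moved less. Gabpb2 was at 132 and 144 CPM with DMSO against 115 and 119 with TSA in wild type cells, and 141 and 135 with DMSO against 117 and 120.5 with TSA in TKO cells. Every TSA library was below every DMSO library. It fell by 0.23 on the log2 scale in wild type (adjusted p = 0.0481, edgeR), and was at -0.22 with an adjusted p of 0.0506 in edgeR in TKO. The wild type call held under 2 of 15 alternatives and was lost on leaving out any library other than wild type DMSO replicate 1, with adjusted p from 0.0338 to 0.830 over the alternatives. In TKO it was called under 5 of 15 alternatives, among them leaving out either wild type DMSO library, with adjusted p from 0.0321 to 0.495. Gabpb1 ran from 61.9 to 73.2 CPM over the 8 libraries. Its treatment groups overlapped in TKO and lay just apart in wild type, and its TSA values of -0.12 in wild type and -0.02 in TKO were not called. The ratio of Gabpa to the sum of both beta genes, per kb, was 1.72 and 2.01 with DMSO against 1.49 and 1.56 with TSA in wild type cells, and 2.14 and 2.26 with DMSO against 1.70 and 1.53 with TSA in TKO cells. The ratio was lower in both TSA groups than in the DMSO groups.

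**Figure D3:**
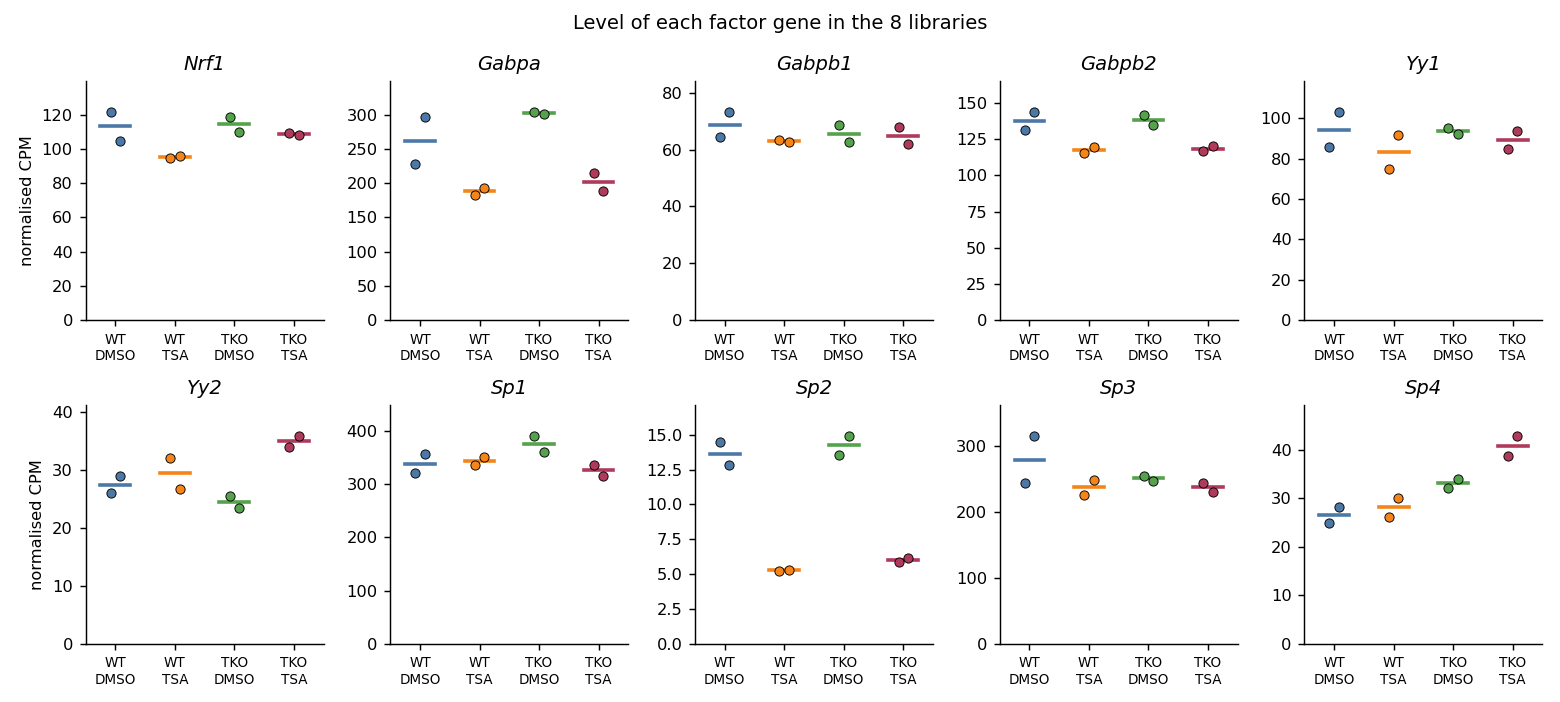
Normalised CPM of each of the 10 genes in the 8 libraries (points) with the mean of each group of 2 (bars), each panel on its own axis from 0. The TSA points of Sp2 and Gabpa lie below all DMSO points, and the TKO TSA points of Yy2 and Sp4 lie above all others.

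Yy1 was at 85.6 and 103 CPM with DMSO against 74.8 and 91.7 with TSA in wild type cells, and 95.4 and 92.3 with DMSO against 85.1 and 94.0 with TSA in TKO cells. The groups overlapped within each genotype. The TSA value was -0.18 in wild type, with a 95% interval from -0.45 to 0.09, and -0.07 in TKO, with an interval from -0.34 to 0.20.

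Yy2 rose with TSA in TKO cells. It was at 25.98 and 28.9 CPM with DMSO against 32.1 and 26.6 with TSA in wild type cells, and 25.5 and 23.4 with DMSO against 34.0 and 35.9 with TSA in TKO cells. The TKO TSA libraries were above the other 6, and the wild type groups overlapped. The log2 fold change was 0.51 ± 0.13 (SE; adjusted p = 0.00626, edgeR) in TKO and 0.10 ± 0.13 (adjusted p = 0.544, edgeR) in wild type. The difference between these effects was 0.41, with an unadjusted p of 0.0493 and an adjusted p of 0.342 in edgeR, so it was not called. Without TKO DMSO replicate 2 the TKO call was lost (adjusted p 0.0558 in edgeR). Yy2 made up 17.1% to 19.7% of the summed level of Yy1 and Yy2 per kb in the DMSO libraries and 19.1% to 25.8% in the TSA libraries.

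Yy2 has 1 exon (chromosome X, 157566119 to 157568985) and lies inside Mbtps2 on the same strand, with no shared exon bases. Mbtps2 encodes a protease that cleaves membrane-bound transcription factors. Since total RNA was sequenced, intronic reads of Mbtps2 could be counted for Yy2. Mbtps2 was at 42.5 and 42.0 CPM in TKO DMSO and at 31.9 and 34.3 in TKO TSA, and fell by 0.35 on the log2 scale (adjusted p = 0.0250, edgeR), while Yy2 rose there. The exonic level of Mbtps2 does not measure its intronic reads, whose part in the Yy2 counts was not tested.

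**Figure D4:**
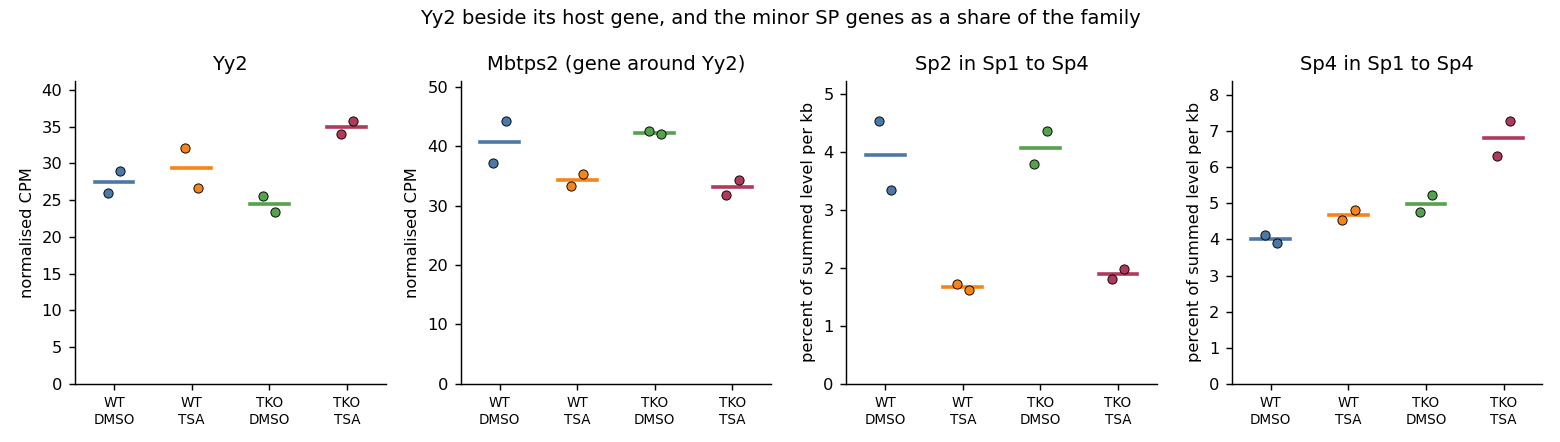
Normalised CPM of Yy2 and of Mbtps2, the gene around it, and the percent of the summed Sp1 to Sp4 level per kb held by Sp2 and by Sp4, with 8 libraries as points and group means as bars, axes from 0. Yy2 is highest and Mbtps2 low in TKO TSA, the Sp2 share is below 2% in all TSA libraries, and the Sp4 share is highest in TKO TSA.

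Sp2 had the largest response of the 10 genes and fell with TSA in both genotypes. It was at 14.5 and 12.8 CPM with DMSO against 5.25 and 5.30 with TSA in wild type cells, and 13.5 and 14.9 with DMSO against 5.89 and 6.15 with TSA in TKO cells. Every TSA library was below every DMSO library, with close values within each TSA group. The fall was 2.59-fold in wild type (log2 -1.37 ± 0.17 SE, adjusted p = 0.000112, edgeR) and 2.36-fold in TKO (log2 -1.24 ± 0.17, adjusted p = 0.000121, edgeR). Both calls held under all 15 alternatives. The genotypes differed in this effect by 0.13 on the log2 scale, with a 95% interval from -0.40 to 0.67. Of all tested genes, 84.7% in wild type and 78.7% in TKO changed by less than Sp2. Its share of the summed Sp1 to Sp4 level per kb was 3.36% to 4.55% in the DMSO libraries and 1.62% to 1.99% in the TSA libraries.

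Sp1 and Sp3, the most abundant SP genes, were not called with all 8 libraries and TMM scaling, and each was called under some alternatives. Sp1 ran from 316 to 391 CPM over the 8 libraries and its TSA values were 0.02 in wild type and -0.20 in TKO, the latter with an adjusted p of 0.0746 in edgeR. Scaling by total counts called Sp1 higher in wild type (0.23, adjusted p 0.0440 in edgeR), at 0.01 relative to the median of all genes, and leaving out wild type DMSO replicate 2 called it lower in TKO (-0.21, adjusted p 0.0462 in edgeR). Sp3 was at 243 and 315 CPM with DMSO and 226 and 249 with TSA in wild type cells, with overlapping groups, and between 230.1 and 255 in TKO. Its TSA values were -0.23 and -0.08 on the log2 scale. In wild type it was called lower without wild type DMSO replicate 1 (-0.41, adjusted p 0.00821 in edgeR) and was at -0.04 without replicate 2 (adjusted p 0.770 in edgeR). Of the deposited Sp3 exons, 109 bases (2.46%) overlap 1700011J10Rik.

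Sp4 was at 25.0 and 28.2 CPM with DMSO against 26.2 and 30.0 with TSA in wild type cells, and 32.2 and 34.1 with DMSO against 38.8 and 42.9 with TSA in TKO cells. All TKO libraries were above all wild type libraries. With TSA the log2 fold change was 0.30 in TKO, with an adjusted p of 0.0538 in edgeR, and 0.08 in wild type. The TKO value was called under 7 of 15 alternatives, among them all 3 other scalings and leaving out either wild type DMSO library, with adjusted p from 0.0106 to 0.261. Its share of the summed Sp1 to Sp4 level per kb was 3.89% and 4.13% in wild type DMSO and 4.53% and 4.82% in wild type TSA. In TKO cells it was 4.75% and 5.24% with DMSO and 6.31% and 7.30% with TSA.

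**Figure D5:**
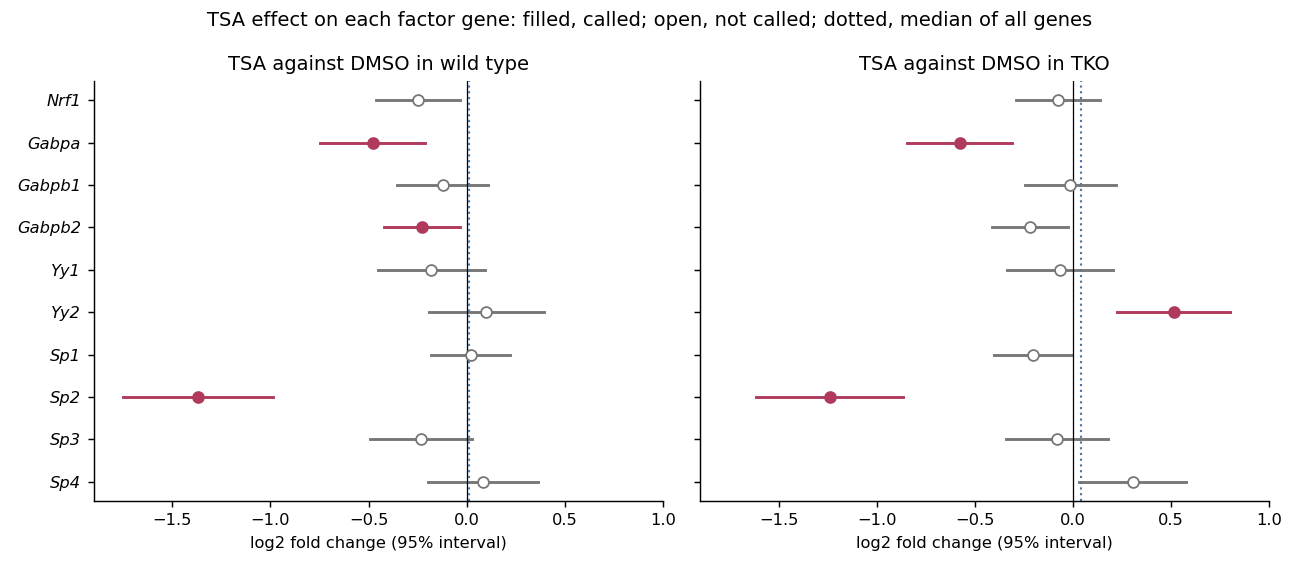
Log2 fold change of each gene with TSA against DMSO and its 95% interval in wild type and TKO; filled red points were called, and the dotted line is the median of all tested genes. Sp2 and Gabpa lie left of 0 in both panels, Gabpb2 is called in wild type, and Yy2 lies right of 0 and is called in TKO.

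The next comparison was between genotypes. In DMSO none of the 10 genes was called by edgeR, where 20.4% of tested genes were called, 9.63% higher and 10.7% lower. At an unadjusted p below 0.05 there was 1, Sp4, with the share of all genes at that threshold not counted. DESeq2 called 0 of the 10, and 2750 of all 15822 tested genes. Sp4 was at 0.32 on the log2 scale with an adjusted p of 0.101, and Gabpa at 0.20 with an adjusted p of 0.264, both in edgeR. Each was called under 1 of 15 alternatives, Gabpa without wild type DMSO replicate 2 (0.40, adjusted p 0.0250 in edgeR), while without replicate 1 it was at 0.01. Under TSA 1 of 10 was called, Sp4, against 18.4% of all genes, 10.0% higher and 8.38% lower. Sp4 rose by 0.54 ± 0.12 (SE) on the log2 scale (adjusted p = 0.0124, edgeR). The call was lost without wild type TSA replicate 1 and without TKO TSA replicate 2, with adjusted p up to 0.134.

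Between TKO cells with TSA and wild type cells with DMSO, 4 of 10 genes were called, 2 in each direction, where 61.9% of tested genes were called, 31.7% higher and 30.2% lower. This contrast shares its libraries with the others. Sp4 rose by 0.62 (adjusted p = 0.00132, edgeR) and Yy2 by 0.35 (adjusted p = 0.0381, edgeR) on the log2 scale. Sp2 fell by 1.18 (adjusted p = 0.000145, edgeR) and Gabpa by 0.37 (adjusted p = 0.0192, edgeR). The Yy2 call held under 7 of 15 alternatives and the Gabpa call under 11, and without TKO TSA replicate 2 only Sp2 and Sp4 were called. Without wild type DMSO replicate 2 Gabpa was at -0.18 (adjusted p 0.175 in edgeR). The difference between the TSA effects in both genotypes was called for none of the 10 genes by edgeR, where 1.35% of tested genes were called. At an unadjusted p below 0.05 there was 1, Yy2, with the share of all genes at that threshold again not counted. DESeq2 called 0 of the 10, and 401 of all 15822 tested genes.

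Counts of related genes are read beside the shares of all tested genes given above. These were 27.0% higher and 25.9% lower with TSA in wild type and 30.8% and 27.9% in TKO. The lists were chosen with earlier results of these data known, so the counts are description only. Of 16 INO80 subunits and other YY1 partners, 0 rose and 12 fell with TSA in wild type, and 0 rose and 10 fell in TKO. Ino80, the ATPase of the complex, went from a mean of 139 CPM to 68.7 in wild type (log2 -1.02) and from 208 to 77.6 in TKO (log2 -1.42). Zfp42, a Yy1 relative and a stem cell marker, fell by 0.94 and 1.32. Of 22 other binders of CpG-containing motifs, 2 rose and 16 fell in wild type and 2 rose and 14 fell in TKO. Usf2, a basic helix-loop-helix factor, fell by 1.64 and 1.82, and Max, the partner of MYC, was not called in either genotype (0.12 and 0.17).

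Of 21 tested other SP and KLF genes, 2 rose and 9 fell with TSA in wild type, and 4 rose and 9 fell in TKO. Klf17 went from 1.91 to 26.5 CPM in wild type and from 3.27 to 46.6 in TKO, while Klf2, a pluripotency factor, went from 60.4 to 26.4 and from 80.2 to 26.9. Of 21 tested other ETS genes, 8 rose and 5 fell in wild type, and 7 rose and 5 fell in TKO. Ets1 rose by 1.04 in wild type, from a mean of 27.4 to 56.3 CPM, and by 2.16 in TKO, from 6.94 to 31.1. It was thus lower in TKO than in wild type in both treatments. The difference of 1.12 was called (adjusted p = 0.0414, edgeR) and was not run through the alternatives. Of 14 tested coactivators and mitochondrial genome maintenance genes linked to NRF1 and GABP, 3 rose and 4 fell in each genotype, so 7 of 14 were called where 52.8% and 58.7% of all tested genes were. Hcfc1, a coactivator that binds GABP, fell by 0.86 and 0.84, and Cycs, encoding cytochrome c, rose by 0.66 and 0.53. The medians of these 5 lists with TSA in wild type were -0.41, -0.40, -0.33, 0.03 and -0.10, in the order given, against 0.01 over all tested genes. In TKO they were -0.40, -0.40, -0.14, -0.06 and 0.01, against 0.04.

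Among tested genes with a promoter window, those with the YY1 letters were called lower with TSA in 49.1% of 527 cases in wild type and 52.8% in TKO, against 26.5% and 28.2% of all 11400. For the NRF1 letters the shares were 33.5% and 36.3% of 454 genes, for the GABP letters 29.9% and 30.3% of 912, and for the SP letters 24.6% and 24.9% of 2744. They were called higher in 9.87% and 12.3% of cases for the YY1 letters, 17.6% and 18.5% for NRF1, 15.1% and 21.6% for GABP and 29.3% and 34.3% for SP, in wild type and TKO, against 26.9% and 30.8% of all 11400. The letters show no binding, and the sets were not matched to all 11400 genes for expression level or CpG content.

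By likeness of mean-centred log2 CPM over the 8 libraries, among 11548 genes, the closest to Sp2 were Arhgef39 and Trim8, with root mean square differences of 0.0594 and 0.101. The closest to Gabpa were Qk (0.0498) and Zfp518a (0.0507), and the closest to Sp4 were Mcm9 (0.0350) and Ate1 (0.0419). Arhgef39 went from a mean of 30.1 CPM to 12.5 with TSA in wild type and from 31.4 to 14.1 in TKO. These genes share the libraries and their depth with the genes they resemble.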

How the data were processed

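Gene expression was measured by RNA-seq in 8 libraries, 4 groups of 2. Per the labels' protocols, total RNA was depleted of ribosomal RNA and sequenced from a strand-directional kit. The authors deposited raw read counts per gene with each gene's exon length in bases; the submitters' processing notes name TopHat2 2.0.13, featureCounts 1.4.5-p1, edgeR 3.22.3 and mm10, while the annotation and strand setting are not given in the sources used here. The tests on counts used edgeR 4.0.16 (R 4.3.3) (filterByExpr, TMM, 1 quasi-likelihood model with a mean per group, 15822 genes, two-sided, Benjamini-Hochberg over all of them, called below 0.05). CPM values are TMM-normalised, and SE and intervals were derived from the F statistic. A floor of 3 counts equals 0.193 to 0.226 CPM and covers counting error only. An exact permutation test of 2 against 2 libraries cannot go below 0.333.

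The members and lists were chosen with earlier results of these data known. All 10 members are named; of each list and contrast, at most the 2 largest called increases and decreases with a mean of at least 1 CPM are named, with Zfp42, Hcfc1 and Max. Log2 fold changes are printed for 34 of 60 pairs of member and contrast, a selection made after their values were seen. Replicate pairs differed beyond sampling noise, with a chi-square per degree of freedom of 5.28 to 12.2. The test was tested on simulated data in which a small part of the genes changed, in wild type TSA only. In the data 52.8% of tested genes were called with TSA in wild type. The simulation therefore does not cover scaling or error rates where so many genes change. The first criterion, on the recovery of all genes with large changes, was not met because genes with few reads were missed. The criteria were then revised to look at well-covered genes, bias and unchanged genes. With gene-wise dispersion simulated, false calls exceeded the nominal share. Alternatives were RLE, total counts and upper quartile scaling, no filter, the replicate number as a block, only the groups compared, DESeq2 1.42.0 and leaving out each of the 8 libraries.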

Additional observations from a re-analysis of the deposited data

How the results depend on the processing

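Over 506 recomputed values of the printed log2 fold changes, 438 kept direction and side of the threshold, 29 lost a call, 21 gained one and 18, all of values that were not called, changed sign. Over all 60 pairs of member and contrast, printed or not, 66 of 890 recomputed values changed sign, 0 of them called. The Sp2 calls with TSA in both genotypes, the Gabpa call in TKO and the calls of Sp2 and Sp4 in TKO TSA against wild type DMSO held under all 15 alternatives. With TSA in wild type, total counts gave 0.081 for Gabpb1 and 0.025 for Yy1, and upper quartile 0.025 for Gabpb1, while total counts called Sp1 higher at 0.23 and left Gabpa and Gabpb2 uncalled. With TSA in TKO, total counts gave 0.073 for Nrf1, 0.13 for Gabpb1, 0.082 for Yy1 and 0.066 for Sp3, and upper quartile 0.00068, 0.060 and 0.0088 for Nrf1, Gabpb1 and Yy1. These scalings moved the median of all genes to 0.22 and 0.16 in wild type and 0.19 and 0.11 in TKO.

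Each of the 8 libraries was left out in turn, with the lone library of a group assumed to vary like the others. Which members were called depended on the library left out in every contrast but the interaction. The genes called ran from 1458 to 3330 in TKO against wild type in DMSO, lowest without TKO DMSO replicate 2, from 941 to 3443 under TSA, lowest without wild type TSA replicate 1, and from 10 to 410 in the interaction, lowest without TKO DMSO replicate 2 and highest without wild type DMSO replicate 2. With TSA in wild type the values ran from -0.047 to 0.23 for Yy2, from -0.055 to 0.092 for Sp1 and from -0.022 to 0.17 for Sp4. Gabpa ran from -0.66 to -0.29 there, called throughout, and Sp3 from -0.41 to -0.04, called without wild type DMSO replicate 1. Values ran from -0.089 to 0.050 for Gabpb1 with TSA in TKO, and from -0.30 to 0.089 for Gabpa in the interaction.

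The libraries share only a replicate number, and the correlations of same-numbered deviations ran from 0.048 to 0.39 over the 6 pairs of groups. With the replicate block, 5 members were called with TSA in TKO (Gabpb2 and Sp4 added), 1 in TKO against wild type in DMSO (Sp4, adjusted p 0.0445 in edgeR), Nrf1 in addition with TSA in wild type, and 633 genes in the interaction. The block also raised the calls among all 15822 tested genes, from 9284 to 10039 with TSA in TKO. They rose from 8358 to 9256 with TSA in wild type and from 3221 to 4217 in TKO against wild type in DMSO. With only the groups compared in the fit, the same 5 members as with the block were called with TSA in TKO. There 9422 of 15308 tested genes were called. The interaction gave 488 genes without the filter and 401 with DESeq2, against 213, and its higher calls were 65.3% of all calls, or 55.8% by total counts and 53.0% by upper quartile. For TKO TSA against wild type DMSO, higher calls went from 51.2% to 63.1% by total counts. The cause of these changes was not tested.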
